A study of Mus musculus with 6 samples.

Results

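The genes of the TRIM family (tripartite motif) were followed in stimulated mouse macrophages treated with dopamine. Members were the genes whose symbol is Trim, a number and at most 1 letter from a to d, so relatives known by other names (such as Pml or Mefv) were left out. This gave 61 members among 17951 genes listed in at least 1 of 6 RNA-seq libraries. In 3 libraries, called Pam3CSK4 plus DA, the cells had received DA (dopamine, read from the title of the series) for 2 h and then Pam3CSK4 for 6 h. The other 3 libraries, called Pam3CSK4, received the ligand alone. Pam3CSK4, a lipopeptide made by synthesis, stimulates Toll-like receptor 2 paired with Toll-like receptor 1. All cells were bone marrow-derived macrophages of wild-type C57BL/6 mice aged 8 weeks, grown for 4 to 6 days in 10% serum and 10% medium conditioned by L929 cells, which secrete a growth factor for macrophages. Neither resting cells nor cells with DA only were analysed here, so levels in the Pam3CSK4 group are those of stimulated cells.

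TRIM proteins share a RING domain, B-boxes and a coiled coil. The RING domain recruits a ubiquitin-conjugating enzyme and makes most of them E3 ubiquitin ligases, and the coiled coil pairs the chains. The C-terminal domain differs between subfamilies and chooses the target: many carry a SPRY domain, others a COS box that binds microtubules, NHL repeats, or a PHD finger with a bromodomain that reads chromatin. In macrophages the family is best known for tuning the pathways from Toll-like receptors, RIG-I-like receptors and cytosolic DNA sensors to NF-kB and interferon, and a number of its genes are interferon-induced.

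A run of SPRY members lies on chromosome 7, from Trim6 to Trim30d, with Trim21 and Trim68 before it and Trim3 after it in map order. The promoters of 7 of these genes are shown because they carry, or lack, the core of the interferon-stimulated response element (GAAA, any 2 bases, GAAA), searched on both strands. They run 5′ to 3′ on the gene's strand, from 120 bases before the start to base 30 from it, taken from RefSeq on GRCm38.p6. Capitals mark the core, written as TTTC, 2 bases and TTTC where it lies on the other strand. In Trim21, where it occurs at bases 14 and 20 from the start, both copies run together. The positions are chr7:102565453-102565602 (minus strand) for Trim21, chr7:104315466-104315615 (minus) for Trim12a, chr7:104353320-104353469 (minus) for Trim12c, chr7:104244337-104244486 (plus) for Trim34a, chr7:104465164-104465313 (minus) for Trim30a, chr7:104507820-104507969 (minus) for Trim30d and chr7:104218675-104218824 (plus) for Trim6.
Trim21: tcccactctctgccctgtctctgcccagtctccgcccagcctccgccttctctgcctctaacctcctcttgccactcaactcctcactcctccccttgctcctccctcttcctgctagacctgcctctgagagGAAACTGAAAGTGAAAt
Trim12a: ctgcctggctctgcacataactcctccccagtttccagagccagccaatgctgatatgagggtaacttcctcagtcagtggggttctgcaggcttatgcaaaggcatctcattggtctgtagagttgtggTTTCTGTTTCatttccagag
Trim12c: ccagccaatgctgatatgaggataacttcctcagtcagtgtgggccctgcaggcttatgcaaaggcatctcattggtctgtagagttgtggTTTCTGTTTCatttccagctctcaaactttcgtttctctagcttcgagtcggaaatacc
Trim34a: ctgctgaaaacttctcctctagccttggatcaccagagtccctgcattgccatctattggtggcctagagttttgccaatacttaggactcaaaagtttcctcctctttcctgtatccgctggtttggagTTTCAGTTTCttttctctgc
Trim30a: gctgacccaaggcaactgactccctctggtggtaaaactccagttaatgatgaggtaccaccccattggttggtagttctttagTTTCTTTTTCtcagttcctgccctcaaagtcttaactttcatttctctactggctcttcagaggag
Trim30d: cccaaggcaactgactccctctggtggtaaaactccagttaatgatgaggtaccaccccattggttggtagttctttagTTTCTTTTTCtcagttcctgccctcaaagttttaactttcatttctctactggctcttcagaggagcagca
Trim6: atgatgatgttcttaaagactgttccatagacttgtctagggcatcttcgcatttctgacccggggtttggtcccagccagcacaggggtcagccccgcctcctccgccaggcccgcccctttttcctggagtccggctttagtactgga

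The core was found in the promoters of 8 of the 30 tested members with an entry, counting for each gene the promoter of 300 bases (250 before the start and 50 after) that RefSeq's table lists first. That was 26.7%, beside 3.38% of 9913 tested genes. The 8 genes are Trim5, Trim12a, Trim12c, Trim21, Trim26, Trim30a, Trim30d and Trim34a. With DA, 3 of them rose, 2 fell and 3 were not called. Among the 22 members whose first listed promoter lacks it, 8 rose, 5 fell and 9 were not called. Of these 22, Trim2 holds the core in 1 of its 4 other listed promoters. Over all tested genes, the core was in 3.39% of promoters of genes higher with DA and in 3.56% of those lower. An NF-kB motif (GGG, any 5 bases, CC) was in 19 of the 30 (63.3%) against 67.4% of tested genes, and an antioxidant response element (TGANNNNGC) in 8 of the 30 (26.7%) against 43.4%. Both were searched on both strands, and these 3 motifs may overlap. A match is a description of letters and not a bound site. Copies of the same ancestral gene share long stretches here: the promoters of Trim5 and Trim12a hold an identical run of 241 bases, and those of Trim30a and Trim30d 1 of 118. The 8 genes with the core are therefore not independent cases, and the part of the element in the changes was not tested.

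With DA, 14 members were higher, 9 lower and 18 not called, at an adjusted p under 0.05 in edgeR's quasi-likelihood test on expected counts. The 41 tested members are those left by a filter on low counts. The 23 called are 56.1% of the tested members, beside 64.4% of all 12390 tested genes. Higher genes were 32.6% and lower genes 31.8% of all tested, and the family's share of calls of any size is near or below that background. Of the 41 tested members, 6 were higher and 3 lower by at least 2-fold. Among all 12390 tested genes, 7.34% were higher and 7.48% lower by that much. The share of large rises thus lay above its background and that of large falls near it, which was not tested. The median log2 fold change (DA minus Pam3CSK4) was 0.10 for the members and 0.02 for all genes. The median size of the change was 0.29 for the members and 0.38 for all genes. The members ranged from -1.87 (Trim36) to 4.55 (Trim9). Groups did not overlap in 25 of 41 members (68.7% of all genes), namely all 23 called, Trim3 and Trim26. Upper-quartile scaling gave 17 higher and 7 lower members, with 66.1% of all genes called (40.8% higher and 25.3% lower). It moved the median of all genes to 0.135, against 0.0202 with the TMM scaling used for the main test and for CPM, and turned no called member round.

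**Figure D1:**
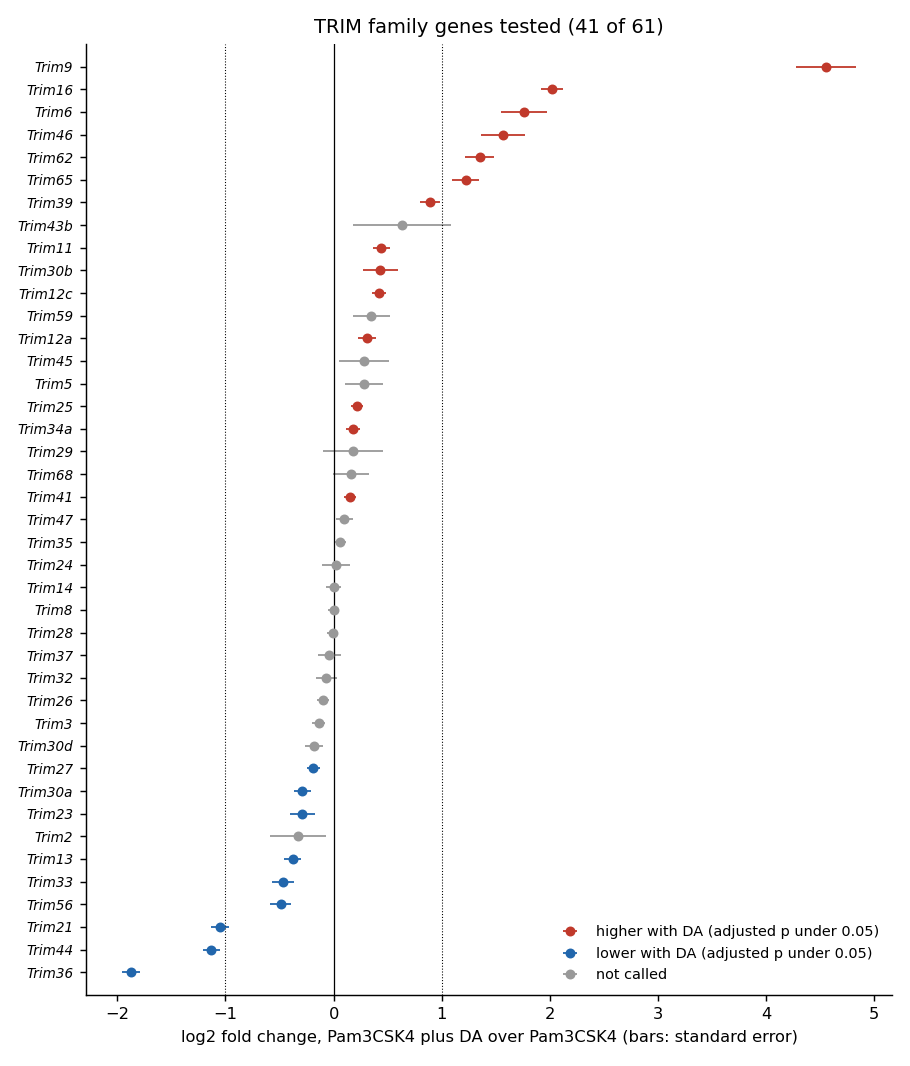
Log2 fold change of the 41 tested TRIM genes, Pam3CSK4 plus DA minus Pam3CSK4, with bars of 1 standard error, ordered by size and coloured by call. The changes run from 4.55 for Trim9 to -1.87 for Trim36, with most between 0.5 and -0.5.

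The total output of the family, without TMM scaling, stayed close in both groups, although single genes moved far. Summed FPKM (the authors' level scaled by transcript length and library depth) over the 61 members was 418.6, 395.0 and 405.8 in the Pam3CSK4 plus DA libraries, against 408.3, 394.4 and 381.5 in the Pam3CSK4 libraries. The groups overlapped. The members took 0.138% to 0.147% of all counts with DA and 0.135% to 0.145% without. Neither these shares nor FPKM, here and below, are TMM-scaled. The TMM factors were 1.023 to 1.041 with DA and 0.9598 to 0.9751 with Pam3CSK4. Beside CPM, which is TMM-scaled, these values therefore lie higher with DA relative to Pam3CSK4. The 5 members with the highest level held 43.2% to 43.9% of the family's FPKM with DA and 42.7% to 43.3% without.

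Those 5, by FPKM, were Trim30a, Trim8, Trim25, Trim35 and Trim28. Trim30a, a mouse macrophage ligase that targets TAB2 and TAB3 to restrain Toll-like receptor signalling, had 41.1 ± 2.67 FPKM with DA and 47.5 ± 5.76 with Pam3CSK4 (SD, n = 3 each). Trim8, a ligase that acts on TAK1 in the NF-kB pathway, had 42.6 ± 0.399 with DA and 40.1 ± 1.59 with Pam3CSK4. Trim25, the ligase of RIG-I, had 35.5 ± 2.17 FPKM with DA and 28.8 ± 0.66 with Pam3CSK4. Trim35 had 31.8 ± 0.343 with DA and 28.8 ± 1.3 without, and Trim28 25.7 ± 0.761 with DA and 24.4 ± 0.522 without. Trim8 had the highest mean with DA and Trim30a with Pam3CSK4. Their libraries overlapped with DA, and with Pam3CSK4 the lowest Trim30a library (41.43) lay just above the highest of Trim8 (41.33). Trim25 and Trim35, next in order, overlapped with Pam3CSK4 and not with DA. These FPKM values place Trim30a at percentile 86.4 of tested genes and Trim28 at percentile 78. Of the 4 members with the largest rises, Trim9 lay at percentile 8.84, Trim16 at 44.5, Trim6 at 10.1 and Trim46 at 15.

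**Figure D2:**
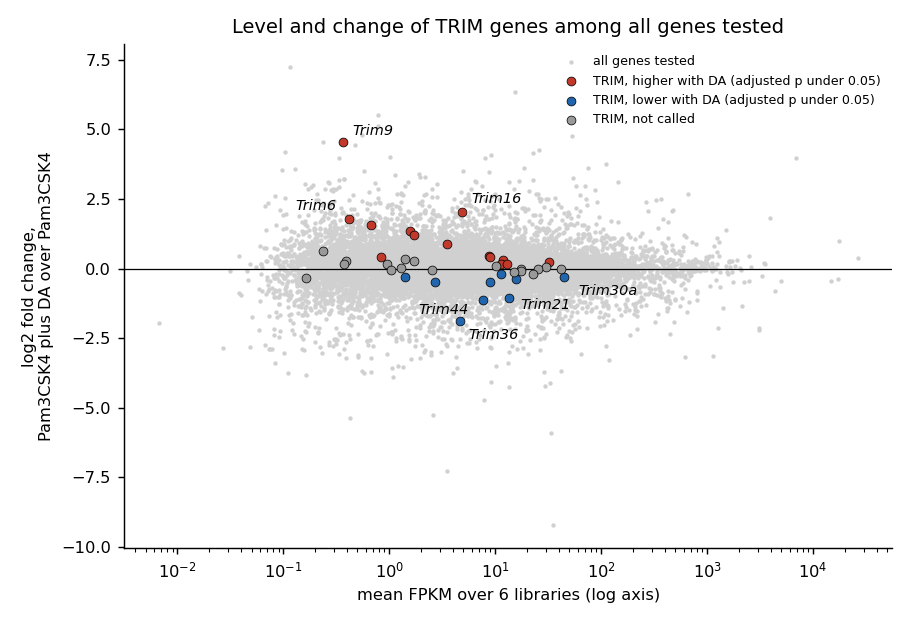
Log2 fold change (Pam3CSK4 plus DA minus Pam3CSK4) of the 41 tested members (coloured by call) against mean FPKM over 6 libraries on a log axis, with all tested genes in grey. Trim9, Trim6 and Trim46 stand high at low levels, and the most abundant members lie near 0.

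Trim9 rose most. It is a brain-enriched ligase with a COS box that binds the netrin receptor DCC, and it is known to restrain NF-kB by holding beta-TrCP. Trim9 lies at chr12:70244533-70347614 (GENCODE gene model, GRCm38). Its CPM (counts scaled to a library size of 1e+06) was 3.18, 3.01 and 3.27 in the Pam3CSK4 plus DA libraries, against 0.144, 0.144 and 0.0976 in the Pam3CSK4 libraries. These are 209 counts with DA and 8 with Pam3CSK4, a ratio of 24.5 with an exact 95% interval of 12.2 to 57.4 that covers counting error only. Its log2 fold change was 4.55 (SE 0.278, adjusted p = 3.64e-09), the 7th highest of the 12390 tested genes. Trim9, Trim6, Trim46 and Trim30b lie under the mean of 5 CPM set for naming and were named after their values were seen.

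Trim16, at chr11:62820231-62850808, rose 4.06-fold. It has no RING domain and is known in autophagy of damaged lysosomes through galectin-3, and in the p62, KEAP1 and NRF2 response. Its CPM was 30.1, 29.6 and 30.6 with DA, against 8.37, 7.85 and 6 with Pam3CSK4, and the groups were far apart. The log2 fold change was 2.02 (SE 0.099, adjusted p = 3.36e-10). The RNA of p62 and of KEAP1 was higher with DA as well. NRF2 was not in the lists used here, and the activity of that response was not tested. Sqstm1, which encodes p62, had 4330 ± 280.1 CPM with DA and 1657 ± 46.1 with Pam3CSK4 (SD, n = 3 each; log2 fold change 1.39, adjusted p = 4.28e-11). Keap1 averaged 135.2 CPM with DA and 72.5 with Pam3CSK4 (0.90, adjusted p = 7.52e-09).

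Trim6, at chr7:104218793-104235152, had 2.68, 2.16 and 2.59 CPM with DA, against 0.673, 0.674 and 0.829 with Pam3CSK4. In human cells it makes unanchored ubiquitin chains that activate IKK-epsilon. The groups did not overlap (log2 fold change 1.76, SE 0.214, adjusted p = 5.6e-06). Trim46, which organises microtubules at the base of axons, lies at chr3:89234177-89246309. It had 3.18, 2.7 and 3.32 CPM with DA, against 0.817, 0.963 and 1.32 with Pam3CSK4 (1.57, SE 0.203, adjusted p = 1.1e-05). Krtcap2 overlaps Trim46 on the other strand and rose as well (0.75), and whether the counting used strand is not given, so reads of the 2 genes cannot be told apart in the overlap.

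Trim62, a ligase that activates the fungal-receptor adaptor CARD9, and Trim65, which ubiquitinates the RNA sensor MDA5, both more than doubled. Trim62 (chr4:128883580-128911328) had 7.36, 6.52 and 7.73 CPM with DA, against 3.22, 2.55 and 2.68 with Pam3CSK4. Its log2 fold change was 1.35 (SE 0.131, adjusted p = 5.52e-07). Trim65 (chr11:116121846-116131128) had 7.08, 6.84 and 7.77 CPM with DA, against 3.41, 2.74 and 3.17 with Pam3CSK4. Its log2 fold change was 1.22 (SE 0.123, adjusted p = 8.99e-07), and it overlaps Trim47 on the same strand, with 4.49% of its 50-base windows shared with other transcripts. The targets moved differently. Card9 averaged 33 CPM with DA and 33.4 with Pam3CSK4 (-0.01, adjusted p = 0.877), while Ifih1, which encodes MDA5, fell to 117.7 CPM with DA, against 173.3 with Pam3CSK4 (-0.56, adjusted p = 1.19e-05).

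Trim39, a ligase tied to apoptosis through MOAP1 and to the cell cycle through the anaphase-promoting complex, had 15.4, 12.8 and 13.9 CPM with DA, against 7.89, 7.37 and 7.42 with Pam3CSK4. The groups were far apart (log2 fold change 0.89, SE 0.095, adjusted p = 1.51e-06). The other rises were small. Trim11, which binds the DNA sensor AIM2 in human cells, averaged 23 CPM with DA and 17 with Pam3CSK4 (0.44, adjusted p = 0.000169). Trim25 had 209.0, 185.6 and 191.5 CPM with DA, against 171.5, 164.8 and 168.4 with Pam3CSK4. That was a 1.16-fold rise (0.22, adjusted p = 0.00402). Its partner gene Ddx58, which encodes RIG-I, fell to 155.5 CPM with DA, against 195.8 with Pam3CSK4 (-0.33, adjusted p = 0.00134). Trim41 averaged 48.2 CPM with DA and 43.4 with Pam3CSK4 (0.15, adjusted p = 0.0302). Its locus overlaps the far more abundant Rack1 (701 CPM) on the other strand. Without Pam3CSK4 replicate 2, Trim41 was no longer called (adjusted p = 0.142). That also held without Pam3CSK4 plus DA replicate 1 (0.08) or 3 (0.0689), and without Pam3CSK4 replicate 3 (0.0612).

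Trim36 fell most, 3.65-fold, and like Trim9 it carries a COS box, binding microtubules. It lies on chromosome 18. Its CPM was 9.04, 9.67 and 9.27 with DA, against 37.2, 33 and 31.9 with Pam3CSK4. Its log2 fold change was -1.87 (SE 0.083, adjusted p = 1.2e-10). All 3 tested members with a COS box were called, beside 64.4% of all tested genes: Trim9 and Trim46 were higher and Trim36 was lower.

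**Figure D3:**
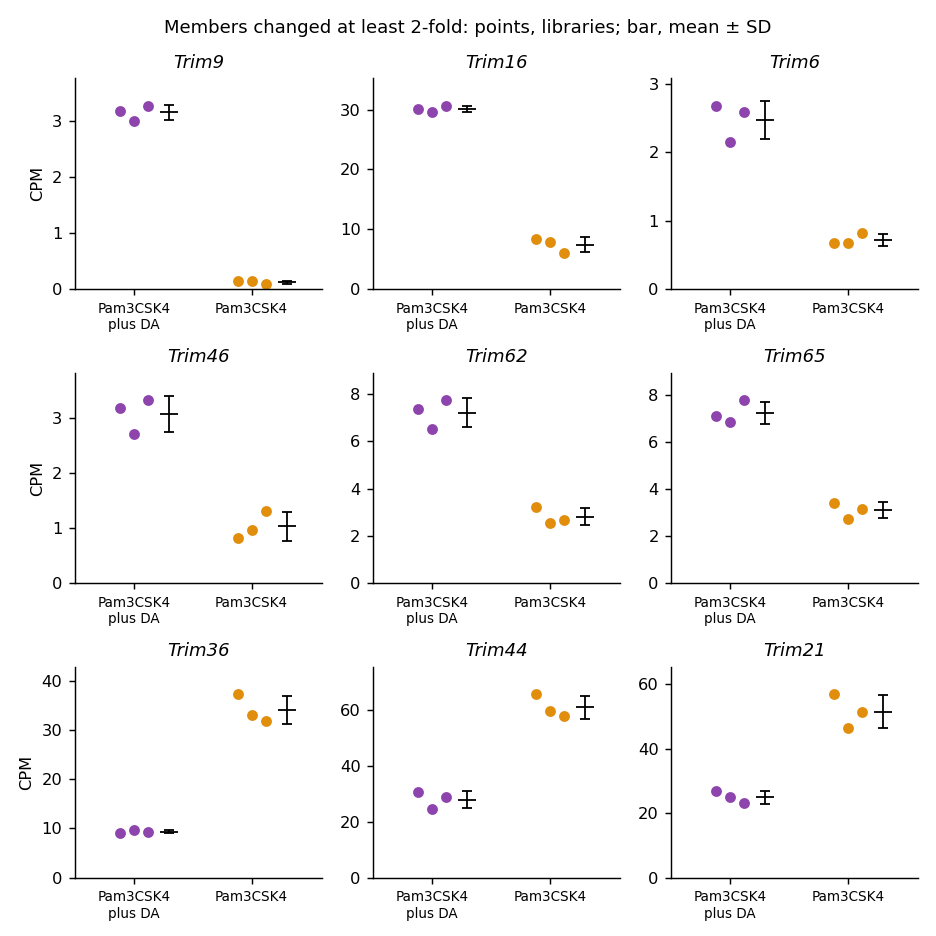
CPM in each library for the 9 members changed at least 2-fold, Pam3CSK4 plus DA left of Pam3CSK4, with points for libraries and bars for mean ± SD. In each panel the 3 points of 1 group lie apart from those of the other.

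Trim44, at chr2:102300119-102407828, lacks a RING domain and is known to stabilise the antiviral adaptor MAVS. It had 30.5, 24.5 and 28.9 CPM with DA, against 65.6, 59.8 and 57.7 with Pam3CSK4. The fall was 2.18-fold (log2 -1.13, SE 0.081, adjusted p = 2.3e-08). Mavs itself averaged 27.1 CPM with DA and 22.8 with Pam3CSK4 (0.25, adjusted p = 0.00713). Trim21, at chr7:102557921-102565486, is the cytosolic antibody receptor, which marks antibody-coated viruses for the proteasome. It had 26.9, 24.9 and 23 CPM with DA, against 56.8, 46.4 and 51.3 with Pam3CSK4 (-1.05, SE 0.083, adjusted p = 6.18e-08). Its promoter, printed above, holds the interferon core at bases 14 and 20, while Isg15, an interferon-induced ubiquitin-like protein, was higher with DA (312.4 CPM with DA and 236.5 with Pam3CSK4, log2 fold change 0.40, adjusted p = 0.000276).

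The other falls were smaller than 2-fold. Trim56, a ligase in the STING pathway of DNA sensing, averaged 27.3 CPM with DA and 38.2 with Pam3CSK4 (-0.49, SE 0.094, adjusted p = 0.00041). Trim33, which limits SMAD4 and is also called TIF1-gamma, averaged 20.4 CPM with DA and 28.2 with Pam3CSK4 (-0.47, SE 0.103, adjusted p = 0.0011). Trim13, anchored in the endoplasmic reticulum, averaged 21.8 CPM with DA and 28.2 with Pam3CSK4 (-0.38, adjusted p = 0.000772), and its locus overlaps Dleu2 on the other strand, which was higher (0.98). Trim30a had 163.1, 143.1 and 150.1 CPM with DA, against 206.6, 188.2 and 164.5 with Pam3CSK4 (-0.29, adjusted p = 0.00403). The lowest Pam3CSK4 library and the highest DA library lay close together. Its targets Tab2 (166.0 CPM with DA and 274.9 with Pam3CSK4, -0.73, adjusted p = 9.49e-08) and Tab3 (8.22 CPM with DA and 11 with Pam3CSK4, -0.41, adjusted p = 0.0085) were lower too.

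Trim27, a regulator of IKK kinases, averaged 45 CPM with DA and 51.3 with Pam3CSK4 (-0.19, adjusted p = 0.0145), and 1 library mattered: without Pam3CSK4 plus DA replicate 1 the adjusted p was 0.0792. Trim23, a ligase that modifies NEMO and also carries an ARF GTPase domain, averaged 5.47 CPM with DA and 6.68 with Pam3CSK4 (-0.29, adjusted p = 0.0365). It was not called when any 1 of 4 libraries was left out: Pam3CSK4 plus DA replicate 2 (0.102) or 3 (0.0689), or Pam3CSK4 replicate 1 (0.129) or 2 (0.0857).

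Along chromosome 7 the change was not uniform. In map order Trim21 fell (-1.05), Trim68 was not called (0.16), Trim6 rose (1.76), and Trim34a (0.18), Trim12a (0.31), Trim12c (0.42) and Trim30b (0.43) rose slightly. Trim5 was not called (0.28, adjusted p = 0.185). Trim30a fell (-0.29), while Trim30d (-0.18, adjusted p = 0.078) and Trim3 (-0.14, adjusted p = 0.075) were not called. Trim30d was called lower without Pam3CSK4 plus DA replicate 1 (0.0221) or Pam3CSK4 replicate 3 (0.013), and Trim3 without Pam3CSK4 plus DA replicate 3 (0.0331). Trim12a and Trim12c are rodent relatives of the retrovirus restriction factor TRIM5. Trim12c had 37.8, 37.2 and 39.1 CPM with DA, against 29.3, 29.4 and 26.3 with Pam3CSK4 (adjusted p = 6.06e-05). Trim12a averaged 20 CPM with DA and 16.1 with Pam3CSK4 (adjusted p = 0.00549), and Trim34a 31.4 with DA and 27.7 with Pam3CSK4 (adjusted p = 0.0245). Trim34a was not called without Pam3CSK4 plus DA replicate 1 (0.0544) or 3 (0.0701), or without Pam3CSK4 replicate 3 (0.105). Trim30b averaged 2.66 CPM with DA and 1.97 with Pam3CSK4 (adjusted p = 0.0303), and was not called without Pam3CSK4 plus DA replicate 1 (0.101) or 2 (0.0658), or Pam3CSK4 replicate 1 (0.0993) or 2 (0.0804).

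**Figure D4:**
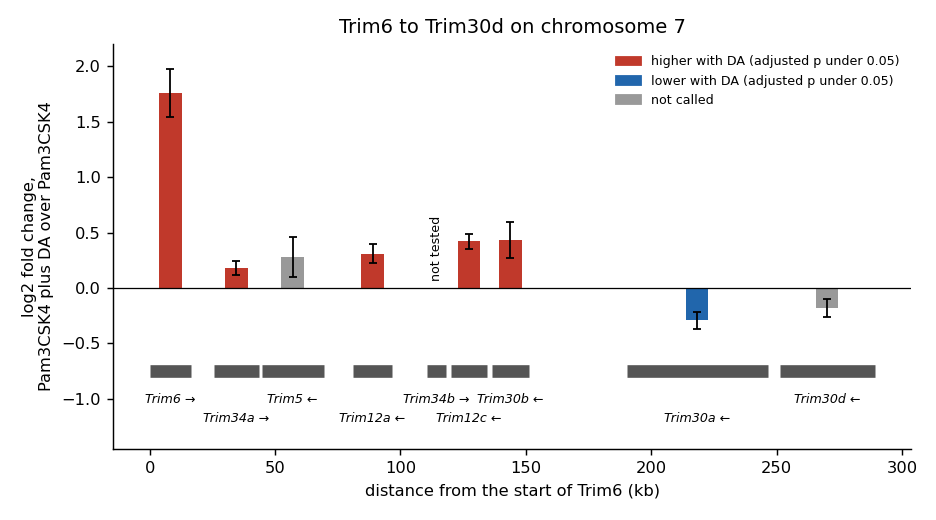
Log2 fold change (Pam3CSK4 plus DA minus Pam3CSK4) of the genes from Trim6 to Trim30d at their distance from the start of Trim6 in kb, coloured by call, with error bars of 1 standard error and gene models in grey. Trim6 is the highest at 1.76 and Trim30a the lowest at -0.29.

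These copies share sequence, so their counts are uncertain. Windows of 50 bases were taken from the longest protein-coding GENCODE transcript of each gene. Of these windows, 41.3% in Trim34a, 38.1% in Trim5, 33.7% in Trim12c and 23.5% in Trim12a also occur in another gene's transcript. The share was 6.53% in Trim30a and 8.29% in Trim30d. Trim9, Trim16, Trim6, Trim46 and Trim62 share none, Trim36 1.6%, Trim44 0.324% and Trim21 0.292%. The members with the largest changes thus share little sequence or none in these transcripts. The authors' counts rest on RefSeq transcripts, which can differ in length: Trim5 had 3655 bases here and 2496 in the authors' values. Trim34b, the copy of Trim34a, was under the filter with 5, 2 and 5 rounded counts with DA and none listed with Pam3CSK4. The transcript length weighted by isoform, also in the files, differed between libraries by more than 0.5 bases in 17 tested members. Trim30d alone had groups that did not overlap: 3476, 3505 and 3466 bases with DA, against 3549, 3537 and 3543 with Pam3CSK4, a 1.7% shorter mean.

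By C-terminal domain, the SPRY members with a RING held 11 of the 14 rises. Of 34 listed, 21 were tested, among the 41 tested members. Of these 21, 11 rose and 3 fell (Trim21, Trim30a and Trim27), with a median log2 fold change of 0.22. Of all tested genes 32.6% were higher and 31.8% lower, so the rises lay above that share and the falls below it. The called share was 66.7%, near the 64.4% of all genes. The 5 tested members of the list with other ends had 2 falls (Trim56 and Trim23) and no rise. Of the 3 NHL members tested (Trim2, Trim3 and Trim32), none was called. The 4 without a RING held the rise of Trim16 and the fall of Trim44. Of the 3 tested chromatin members, Trim33 fell and Trim24 and Trim28 were not called. By role, 2 of 10 tested nucleic acid sensing members rose (Trim25 and Trim65) and 4 fell (Trim13, Trim21, Trim44 and Trim56), a called share of 60% beside 64.4% of all genes. Of 10 tested in NF-kB and Toll-like receptor signalling, 3 rose (Trim9, Trim39 and Trim62) and 4 fell (Trim13, Trim23, Trim27 and Trim30a), a called share of 70%. Called shares near 64.4% say nothing particular about a subfamily or a role, and the split by direction was not tested.

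Several members, most of them abundant, kept nearly equal means in CPM. Trim28, the corepressor KAP1 that KRAB zinc-finger proteins recruit to silence retroelements, had 79.1, 82.4 and 84.3 CPM with DA, against 80.2, 84 and 83.6 with Pam3CSK4. Its log2 fold change was -0.01 (SE 0.054, adjusted p = 0.861). Trim8 had 134.4, 135.2 and 138.0 CPM with DA, against 129.1, 137.3 and 141.7 with Pam3CSK4 (SE 0.054, adjusted p = 0.983). Trim14, a MAVS adaptor without a RING, averaged 56.8 CPM with DA and 56.9 with Pam3CSK4 (SE 0.072, adjusted p = 0.987). Trim24, or TIF1-alpha, a nuclear-receptor cofactor, averaged 7.99 with DA and 7.86 with Pam3CSK4 (SE 0.131, adjusted p = 0.89). By FPKM it lay only at percentile 23 of tested genes. Trim35 averaged 114.7 CPM with DA and 110.4 with Pam3CSK4 (SE 0.053, adjusted p = 0.377). With upper-quartile scaling Trim35 was called higher (0.17, adjusted p = 0.00949). Intervals of 2 standard errors on the log2 scale ran from -0.12 to 0.10 for Trim28, from -0.11 to 0.11 for Trim8 and from -0.15 to 0.14 for Trim14. For Trim24 the interval was wider, from -0.24 to 0.28.

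The 20 members under the filter had at most 18 counts in any library, and 6 were listed only with DA and 2 only with Pam3CSK4. Over all genes, each DA library also listed more (15840 to 15925) than any Pam3CSK4 library (15587 to 15645). Trim7, known from macrophage Toll-like receptor signalling, had 9, 7 and 9 rounded counts with DA, against 2, 1 and 4 with Pam3CSK4. Trim72, a membrane-repair protein of muscle, had 7, 10 and 3 with DA, against 2, 1 and 0 with Pam3CSK4. Trim38 had 1 count in all 6 libraries together. Of the 4 striated muscle members (Trim54, Trim55, Trim63 and Trim72) none was tested. These 20 were left out of the test. In both alternatives without a filter (edgeR on counts, and limma on FPKM) Trim7, Trim72 and Trim34b were called higher and none of the 20 lower. Over all genes, edgeR without a filter called 21.1% higher and 23.1% lower, and limma 26.3% higher and 17.2% lower. The share over low-count genes alone was not computed.

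In a list of 20 genes for E1 and E2 enzymes and Isg15, more were lower than higher. The list was chosen with earlier results of these data known, so its counts describe these genes only. Of them, 12 were lower and 4 higher, where 31.8% of all genes were lower and 32.6% higher. The called share was 80%, beside 64.4% of all genes. The median was -0.23 beside 0.02 for all genes. Ube2e2 fell to 6.49 ± 0.432 CPM with DA, against 24.4 ± 0.562 with Pam3CSK4 (SD, n = 3 each; log2 fold change -1.91, adjusted p = 9.18e-11). Ube2e1 averaged 30.2 CPM with DA and 49.4 with Pam3CSK4 (-0.71, adjusted p = 1.13e-07), and Ube2e3 19.4 with DA and 29.3 with Pam3CSK4 (-0.59, adjusted p = 2.08e-05), so all 3 Ube2e genes were lower. Ube2n, which builds K63-linked chains with Ube2v1, averaged 99.7 CPM with DA and 131.7 with Pam3CSK4 (-0.40, adjusted p = 2.37e-05). Ube2g2 (0.37) and Uba7, the E1 for Isg15 (0.37), were higher with Isg15 and Uba1 (0.23).

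Of 28 signalling partners and substrates, 12 were higher and 11 lower (median 0.02), a called share of 82.1% beside 64.4% of all genes. Ikbkg, the NEMO subunit of IKK and a target of several TRIM proteins, had 144.2 ± 2.78 CPM with DA and 74.1 ± 3.43 with Pam3CSK4 (0.96, adjusted p = 1.84e-09). Of 18 partners of the chromatin TRIM proteins, 10 were lower and 1 higher (median -0.21), where 31.8% of all genes were lower and 32.6% higher. The called share was 61.1%, beside 64.4% of all genes. The 1 higher was Rara, the retinoic acid receptor alpha, with 22.5 CPM with DA and 16.6 with Pam3CSK4 (0.43, adjusted p = 0.000118). Setdb1, the histone methyltransferase recruited by Trim28 (-0.02), and the heterochromatin proteins Cbx1 (0.13), Cbx3 (-0.07) and Cbx5 (-0.02) were not called. Smad2 had 50.2 ± 0.455 CPM with DA and 84.2 ± 1.63 with Pam3CSK4 (-0.75, adjusted p = 2.26e-08), and Smad4 37.4 with DA and 47.4 with Pam3CSK4 (-0.34, adjusted p = 0.00031). Chd4, a chromatin remodeller bound by Trim28, averaged 235.6 CPM with DA and 371.9 with Pam3CSK4 (-0.66, adjusted p = 8.05e-08). Among TRIM proteins under other names, 5 of 12 were tested. Of these, Mid1 (0.05, adjusted p = 0.615) and Mid2 (-0.71, adjusted p = 0.0797) were not called. Pml, the nuclear-body protein, averaged 77.2 CPM with DA and 43.8 with Pam3CSK4 (0.82, adjusted p = 1.72e-07), Mefv (pyrin) 81.2 with DA and 98.9 with Pam3CSK4 (-0.28, adjusted p = 0.000966) and Fsd1l 3.46 with DA and 6.43 with Pam3CSK4 (-0.89, adjusted p = 3.56e-05). Of the partners and enzymes named with values, Keap1, Card9, Ifih1, Ddx58, Mavs, Tab3, Smad4, Setdb1, Cbx1, Cbx3, Cbx5, Ube2e3, Ube2n, Uba1 and Uba7 fall outside the naming rule and were chosen after their values were seen. So were Mid1 and Mid2.

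**Figure D5:**
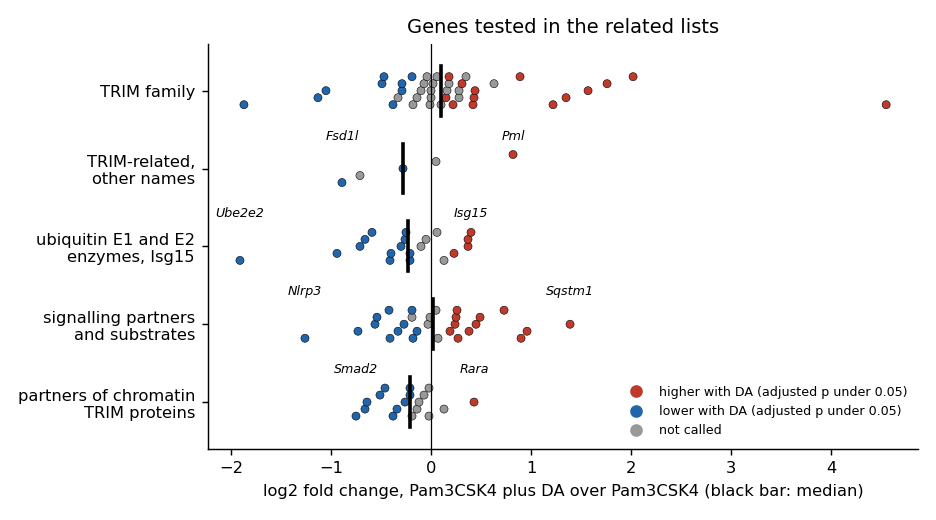
Log2 fold change (Pam3CSK4 plus DA minus Pam3CSK4) of the genes in each list of partners and enzymes, with points for genes coloured by call and black bars for list medians. The E1 and E2 list has its median at -0.23 and the chromatin partners theirs at -0.21.

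Library depth was 21337932 to 21518425 expected counts. Log CPM of libraries in the same group correlated at 0.9941 to 0.9949 over 12390 genes, and the biological coefficient of variation was 0.056. Of the marker lists, all 10 macrophage genes were listed and tested, and their summed CPM was 22597 to 22891 with DA and 29137 to 29419 with Pam3CSK4. Lyz2 carried most of this sum (13042 CPM with DA and 17924 with Pam3CSK4). Of the 10, 6 were lower, 2 higher and 2 not called. All 10 neutrophil genes were listed, 8 tested, with 582.1 to 606.4 CPM with DA and 221.7 to 275.4 with Pam3CSK4. The difference in this sum was mostly S100a8, with 406.3 CPM with DA and 63.5 with Pam3CSK4. Of the 8 tested, 2 were higher (S100a8 and Cxcr2), 2 lower (Camp and Ngp) and 4 not called, with a median log2 fold change of -0.15. S100a9 averaged 99.8 CPM with DA and 93.2 with Pam3CSK4, and Ngp 61.3 with DA and 68.1 with Pam3CSK4. Group means of Camp, Ltf, Cxcr2 and Mpo lay between 3.41 and 9.35 CPM. Elane averaged 0.876 CPM with DA and 0.966 with Pam3CSK4, and Ly6g and Retnlg lay below that. All 8 stromal genes were listed, 7 tested, with 824.7 to 901.3 CPM with DA and 961.5 to 1014 with Pam3CSK4, led by Col1a1 and Col1a2, and 4 lower and none higher. The endothelial list held 42.4 to 45.8 CPM with DA and 37.4 to 41.9 with Pam3CSK4, mostly Vwf. The T and NK cell list (8 of 9 listed, mostly Cd4) held 16.6 to 20.3 CPM with DA and 19.8 to 21.4 with Pam3CSK4. The B cell list (6 of 8 listed) held 1.09 to 1.3 CPM with DA and 2.49 to 2.98 with Pam3CSK4. The dendritic, mast, erythroid and muscle lists stayed under 10 CPM, and Pax5, Cd3g, Cpa3 and Hbb-bs were not listed. The part of these lists in the TRIM results was not tested, and in bulk samples fewer cells of a type and less RNA per cell cannot be told apart. The labels do not say that replicates are separate cultures or animals, so the p-values measure only the spread between these libraries.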

How the data were processed

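RNA from 6 samples of bone marrow-derived macrophages was sequenced on a BGISEQ-500, per the labels. The deposited files hold the authors' expected counts, estimated reads per gene without normalization, named so per the file headers. They also give FPKM, which the authors scaled by transcript length and fragments in the library. Per the submitters' processing notes, Bowtie2 2.2.5 and GRCm38.p5 were used; the quantifier and the strand of the counting were not given in the sources used here. Each file lists genes with FPKM of at least 0.01, and an absent gene was set to 0.

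Groups were taken from the sample titles (the source field misspells the ligand in the DA libraries). Counts were rounded. edgeR 4.0.16 in R 4.3.3 filtered with filterByExpr (5561 genes removed), scaled with TMM and tested 12390 genes by its quasi-likelihood test, 3 Pam3CSK4 plus DA against 3 Pam3CSK4 libraries, no replicate block, with Benjamini-Hochberg adjustment over all genes and a threshold of 0.05. The standard error is the log2 fold change divided by the square root of F. CPM is counts over the TMM-scaled library size. Alternatives used DESeq2 1.42.0 and limma 3.58.1. The edgeR fit was tested on simulated data.

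Named genes were the called members whose groups do not overlap and whose mean reaches 5 CPM (up to 12 rises and 12 falls, by size), the 5 highest levels, and 10 members fixed by name. The members and lists were chosen with earlier results of these data known. A planned comparison of protein sequences was replaced by shared 50-base windows of transcripts.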

Additional observations from a re-analysis of the deposited data

How the results depend on the processing

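None of the 23 called members changed direction under 15 alternatives, and 16 stayed called under each alternative that tested them. The other 7 (Trim23, Trim41, Trim30b, Trim27, Trim34a, Trim30a and Trim33) were lost under at least 1, all with small changes. Of 41 tested, the count of higher and lower members was 14 and 9 with DESeq2's size factors, 17 and 7 with upper-quartile factors, and 11 and 8 with DESeq2's Wald test. It was 12 and 6 of 32 with limma on log2(FPKM + 1) or log2(FPKM + 0.1), 10 and 9 of 32 with a mean count of at least 50 (neither tests Trim9, Trim6, Trim46 or Trim30b), and 14 and 10 of 61 with no count filter. limma with no filter called 18 higher and 5 lower of 61; the cause was not tested. Over all genes these settings called 43.5% to 70% of those tested. Of the members not called, Trim3, Trim30d, Trim35, Trim43b, Trim47 and Trim59 were called under at least 1 alternative, Trim43b without Pam3CSK4 replicate 1 (1.40, adjusted p = 0.0221 in edgeR), and Trim59 without Pam3CSK4 plus DA replicate 3 (0.0164) or Pam3CSK4 replicate 2 (0.0389). Leaving out 1 library gave 11 to 14 higher and 8 to 10 lower. A log2(FPKM + 1) scale understates the change of low genes such as Trim9. With the replicate number as a block, 15 were higher and 11 lower. After each gene's group mean was subtracted from log CPM, same-numbered libraries correlated at 0.102, -0.025 and 0.035. The numbers were therefore not taken as pairs.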
